A study of Mus musculus with 8 samples.

Results

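The genes described here are 40 mouse genes of the unfolded protein response of the endoplasmic reticulum, measured in the whole brain of adult males after prenatal ethanol. They were chosen by gene name, with earlier results of these same arrays known, among them that several were lower after late ethanol. Each gene is represented by a probe set (the group of array probes summarized to 1 value) annotated with that symbol alone, and where a gene had several the probe set with the highest mean over the 8 arrays was used. All 40 had such a probe set, of 19938 genes on the array that had 1, and 45 probe sets in all carried the symbol of a listed gene alone.

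C57BL/6J dams received subcutaneous ethanol or saline in mid-gestation, and RNA from the whole brains of their male offspring was hybridized at postnatal day (PND) 70 to Affymetrix Mouse Gene 1.0 ST arrays. Early ethanol offspring had dams given 2 injections of 2.5 g/kg ethanol in saline on each of gestational days (GD) 8 and 11, and early saline offspring had dams given saline alone on the same days. Late ethanol offspring had dams given the same ethanol doses on GD14 and GD16, and late saline offspring had dams given saline on those days. Each of the 4 groups holds 2 arrays, and each array holds RNA pooled from 3 non-littermate males, so a value is the average of 3 brains and says nothing of a single animal.

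Values are log2 RMA intensities as deposited, on which a difference of 1 is a doubling. Array medians were 6.74 to 6.84 for the early arrays and 7.21 to 7.30 for the late arrays, so ethanol was set against saline only within a timing. No measured marker of neurons, astrocytes or oligodendrocytes was at background, and all 5 measured liver genes were. Background was taken from 1210 probe sets of olfactory and vomeronasal receptor genes, whose 95th percentile was 6.41 to 6.55 on the early arrays and 7.28 to 7.70 on the late arrays. Of the 40 genes, 33 were above this level in both timings. Over all 23410 probe sets with a gene symbol, none had an adjusted p under 0.05 in either comparison (limma, Benjamini-Hochberg), while 401 in the early and 583 in the late comparison had an unadjusted p under 0.05.

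The unfolded protein response is set off when unfolded proteins build up in the endoplasmic reticulum, the compartment in which secreted and membrane proteins are folded. The sensors IRE1 (gene Ern1), PERK (Eif2ak3) and ATF6 (Atf6) sit in its membrane. IRE1 splices the Xbp1 messenger RNA, ATF6 is cleaved to release a transcription factor, and PERK slows translation and favours translation of ATF4. XBP1 and ATF6 raise the transcription of chaperones, disulfide isomerases and degradation factors, and ATF4 that of Ddit3, Trib3, Chac1 and the phosphatase subunit that ends the PERK signal. Neurons and glia use the same machinery for receptors, channels, myelin and secreted factors.

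After late ethanol, the genes past the study's thresholds were chaperones and co-chaperones, disulfide isomerases and secreted products of this response together with Xbp1. None came from the groups of sensors, PERK branch targets and feedback, degradation or translocation. Dnajc3, which also inhibits PERK, was grouped with the co-chaperones, and 3 of the 5 genes of the PERK branch group were at background. The 9 genes Sdf2l1, Creld2, Pdia6, Pdia4, Xbp1, Hspa5, Manf, Dnajb11 and Dnajc3 passed the thresholds of 1.2-fold and an unadjusted p under 0.05, and all 9 were lower in late ethanol brains. Over all probe sets, 0.722% were lower past the same thresholds. The median difference, late ethanol minus late saline, was -0.11 over the 40 genes and -0.0067 over all probe sets. Of the 40, 34 were lower and 6 higher, and 52.7% of all probe sets were lower. Since the late difference was known when the genes were chosen, it is given as a description, with no test. In RNA from whole brain, fewer cells of a type and less RNA per cell cannot be told apart.

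Sdf2l1, a partner of the lumenal chaperones, read 7.98 and 8.13 on the late ethanol arrays, against 8.88 and 8.90 on the late saline arrays. Its difference of -0.83 ± 0.24 (SE, n = 2 arrays a group) was the most negative of the 40 and left 0.561 of the saline level. Each SE given here draws on the spread within all 4 groups, early and late, so it does not describe the late arrays alone. Creld2, a protein of the reticulum that is secreted under stress, read 8.36 and 8.57 on late ethanol arrays, against 9.03 and 9.29 on late saline arrays. For both genes the groups did not overlap, and the gap between the groups was wider than the gap between the arrays of either group. The difference for Creld2 was -0.70 ± 0.15, or 0.617 of the saline level.

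The disulfide isomerases form and rearrange the disulfide bonds of new proteins, and 2 of the 4 measured passed the thresholds. Pdia6 read 9.15 and 9.20 on the late ethanol arrays, against 9.67 and 9.79 on the late saline arrays, a difference of -0.55 ± 0.17. Pdia4 read 10.09 and 10.20 on late ethanol arrays, against 10.66 and 10.63 on late saline arrays, a difference of -0.50 ± 0.15. Neither overlapped between groups. A second probe set annotated to Pdia4 lay at background, with 6.59 and 6.33 after late ethanol and 6.33 and 6.24 after late saline, and was higher by 0.18. P4hb, the subunit shared with collagen prolyl hydroxylase, differed by -0.11 ± 0.10, and Pdia3, the partner of the lectin chaperones, by -0.022 ± 0.13.

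Xbp1 encodes the transcription factor activated by IRE1, and a gene-level value does not separate its spliced from its unspliced messenger. It read 10.51 and 10.37 on the late ethanol arrays, against 10.87 and 10.92 on the late saline arrays, a difference of -0.45 ± 0.099 or 0.731 of the saline level. Atf4, translated under PERK signalling, differed by -0.047 ± 0.11. Ddit3 (CHOP), which promotes cell death under lasting stress, and Atf3, a stress-induced repressor, were at background in the late arrays and differed by -0.20 ± 0.13 and 0.16 ± 0.12.

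Hspa5 encodes BiP, the main Hsp70 chaperone of the reticulum, which also holds the sensors inactive. It read 11.25 and 11.19 on the late ethanol arrays, against 11.66 and 11.68 on the late saline arrays, a difference of -0.45 ± 0.15. The BiP co-chaperone Dnajb11 read 8.91 and 8.94 on late ethanol arrays, against 9.25 and 9.26 on late saline arrays, a difference of -0.33 ± 0.13. All 7 chaperones and co-chaperones of this group were lower after late ethanol, with a median of -0.28, where 52.7% of all probe sets were lower. In 6 of them both ethanol arrays lay below both saline arrays, where 15.7% of all probe sets did so. Dnajc3, an inhibitor of PERK that also acts as a BiP co-chaperone, read 8.99 and 9.13 on late ethanol arrays, against 9.32 and 9.35 on late saline arrays. Its other probe set read the same. At -0.28 ± 0.094 it was the smallest difference inside the thresholds. Hsp90b1 (GRP94, an Hsp90 chaperone) differed by -0.16 ± 0.11, Hyou1 (a BiP exchange factor) by -0.12 ± 0.097 and Dnajb9 (a co-chaperone that restrains IRE1) by -0.060 ± 0.12, none past the thresholds.

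Manf, a secreted factor with protective effects on neurons, read 8.28 and 8.34 on the late ethanol arrays, against 8.72 and 8.77 on the late saline arrays, a difference of -0.43 ± 0.11. Its relative Cdnf was at background and differed by 0.031 ± 0.081. Nucb2, a calcium-binding protein and precursor of nesfatin, differed by -0.074 ± 0.076, small in size although both ethanol arrays lay below both saline arrays.

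**Figure D1:**
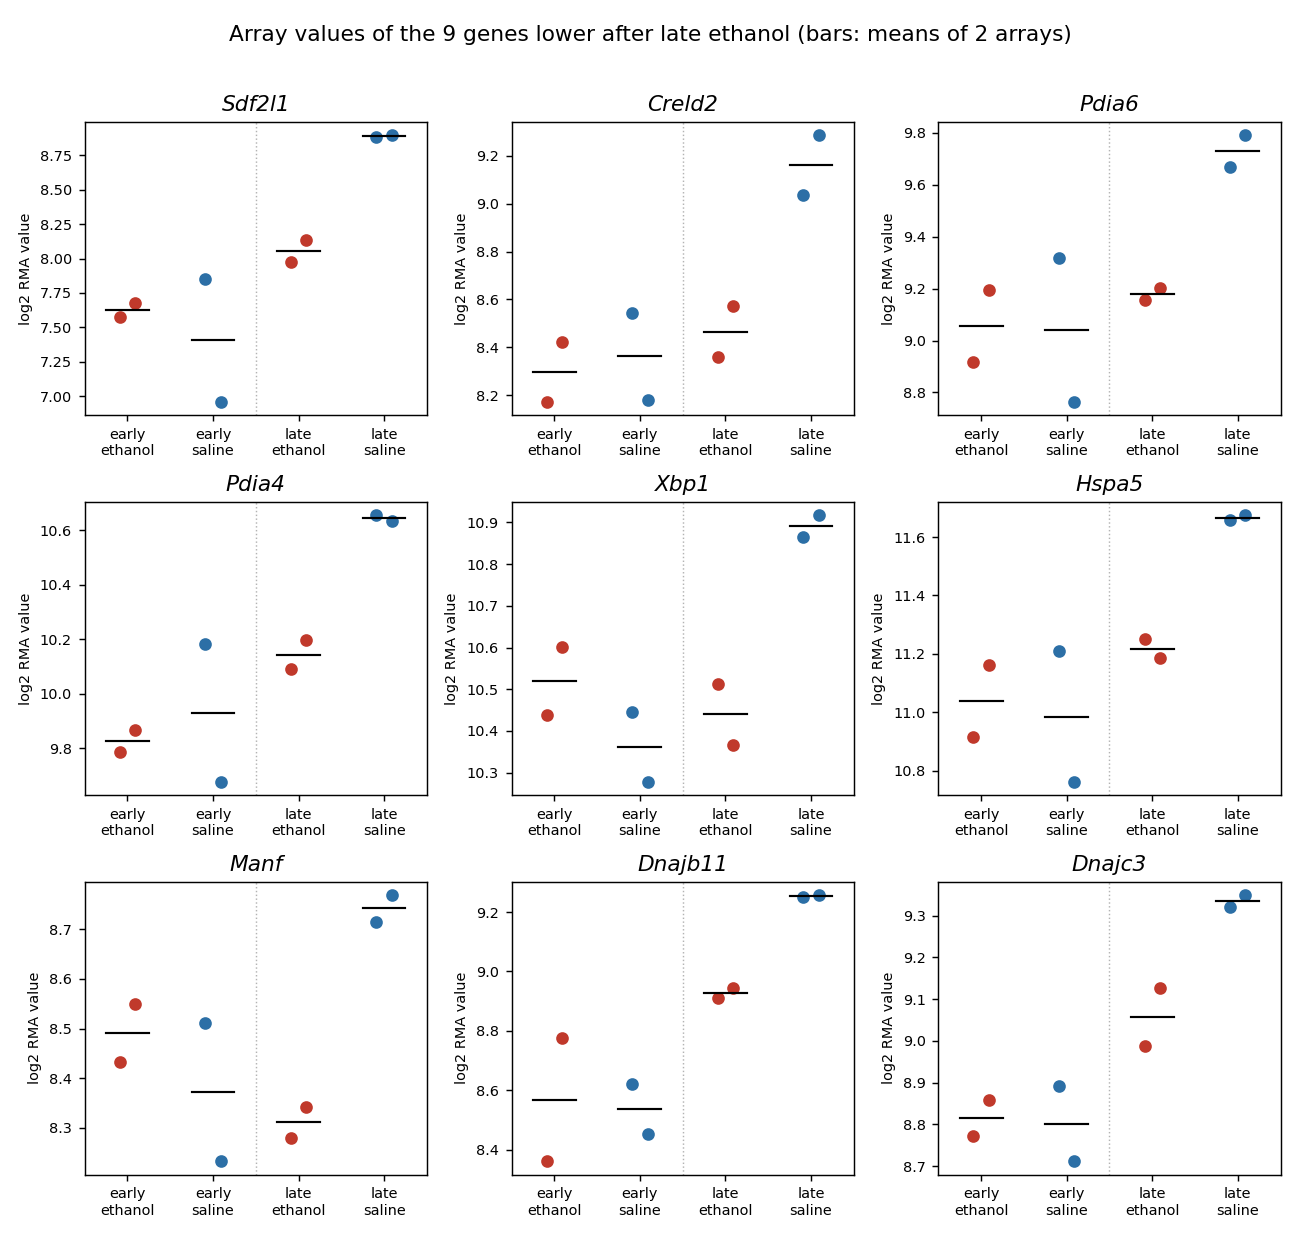
Log2 RMA values (vertical axes) of the 9 genes past both thresholds after late ethanol, 1 point per array, in the early and late ethanol and saline groups; bars are the means of 2 arrays. In every panel both late ethanol arrays lie below both late saline arrays, and in no panel do the early groups separate; early and late values are not to be compared with each other.

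Just outside the thresholds stood Herpud1 at -0.23 ± 0.11 and Calr at -0.23 ± 0.11, and the 31 genes outside ranged from -0.23 (Herpud1) to 0.20 (Sec61b), 25 of them lower. Calr (calreticulin) and Canx (calnexin) hold new glycoproteins by their sugar chains. Calr read 12.14 and 12.07 on late ethanol arrays, against 12.31 and 12.35 on late saline arrays, and Canx differed by -0.023 ± 0.17. Counting arrays rather than sizes, both late ethanol arrays lay below both late saline arrays for 18 of the 40 genes, where 15.7% of all probe sets did so, and above them for 1 gene, Atf3, where 12.7% of all probe sets did.

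The degradation group removes misfolded proteins from the reticulum to the proteasome. All 8 of its genes were lower after late ethanol, where 52.7% of all probe sets were. None passed the thresholds, and the median was -0.12. Herpud1, which gathers the degradation complex, read 10.10 and 10.10 on late ethanol arrays, against 10.37 and 10.30 on late saline arrays. Syvn1, its ubiquitin ligase, differed by -0.19 ± 0.13 and Edem1, which picks out misfolded glycoproteins, by -0.16 ± 0.097. In these 3 genes both ethanol arrays lay below both saline arrays, where 15.7% of all probe sets did so. The ligase adaptor Sel1l (-0.11 ± 0.11), the channel proteins Derl1 (-0.11 ± 0.13), Derl2 (-0.055 ± 0.13) and Derl3 (-0.037 ± 0.081), and the selenoprotein Selenos (-0.14 ± 0.19) overlapped between groups.

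The sensors were close to their saline values. Ern1 differed by 0.049 ± 0.079, Atf6 by 0.015 ± 0.099 and Eif2ak3 by -0.068 ± 0.10, with overlapping groups in each. The PERK branch had a median of -0.056 over 5 genes, of which Trib3, Ppp1r15a and Stc2 were at background. Chac1, an ATF4 and CHOP target that breaks down glutathione, read 7.42 and 7.73 on late ethanol arrays, against 7.84 and 7.72 on late saline arrays, so only its first ethanol array was low, with a difference of -0.20 ± 0.13. Ppp1r15b, the constitutive phosphatase subunit of this pathway, differed by -0.022 ± 0.091. The stress-induced subunit Ppp1r15a differed by -0.066 ± 0.091, the pseudokinase Trib3 by 0.047 ± 0.095 and the secreted glycoprotein Stc2 by -0.056 ± 0.085. The translocation group, which brings new proteins into the reticulum, held Sec61a1 (-0.063 ± 0.097), Ssr1 (-0.031 ± 0.081) and Sec61b (0.20 ± 0.15). Sec61b read 8.18 and 7.75 on late ethanol arrays, against 7.78 and 7.74 on late saline arrays, so only its first ethanol array was high, and its other 2 probe sets, at background on the late arrays, were higher by 0.15 and 0.073.

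**Figure D2:**
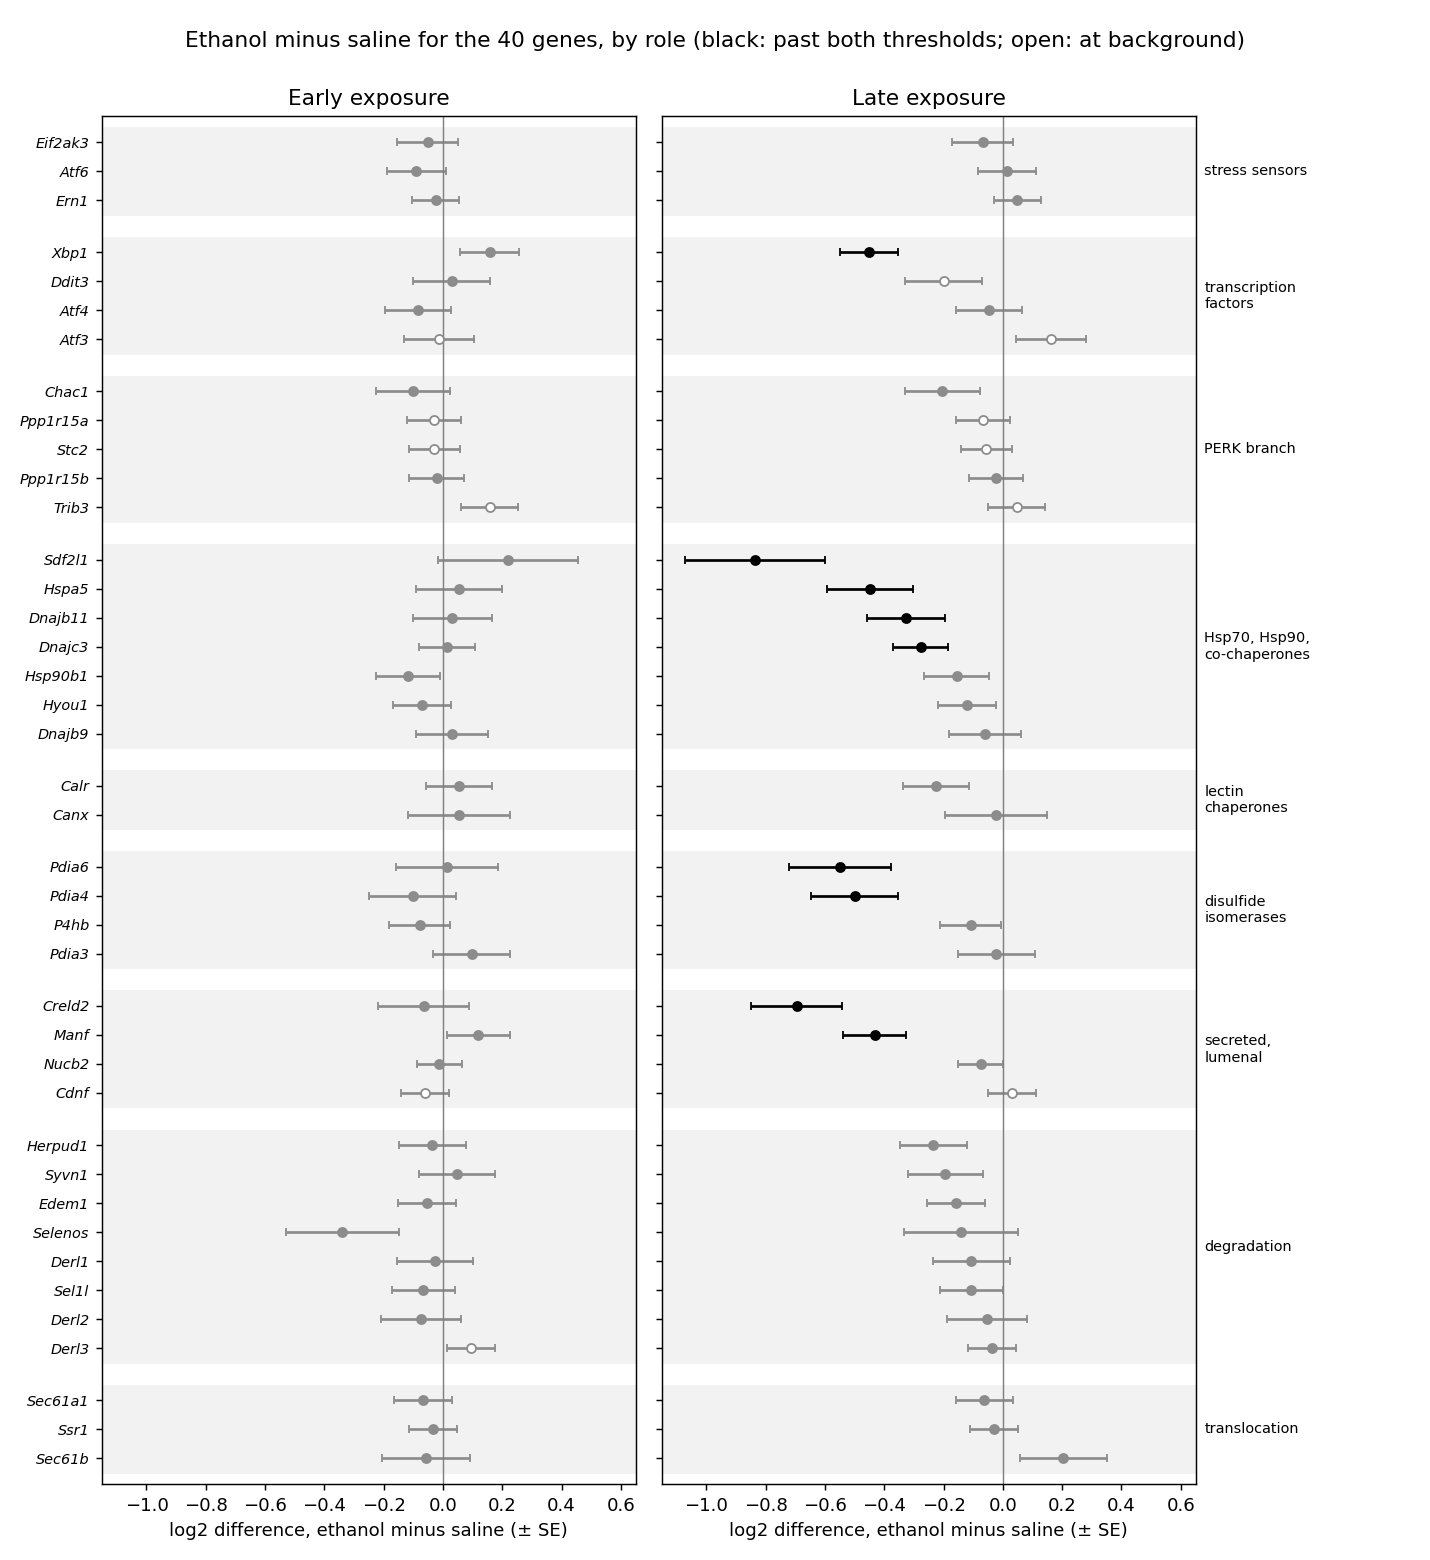
Log2 difference, ethanol minus saline (horizontal axes), with its standard error for each of the 40 genes, grouped by role, after early (left) and late (right) exposure. Black points passed both thresholds and open points were at background; the 9 black points are all left of zero in the late panel, from -0.83 for Sdf2l1 to -0.28 for Dnajc3, and the early panel has none.

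Each of these values rests on 2 arrays a group. Leaving out any of the 8 arrays in turn, between 5 and 10 of the 40 genes were lower past the thresholds after late ethanol, with 5 without late ethanol replicate 1 and 5 without late saline replicate 2. Sdf2l1, Creld2, Xbp1 and Manf passed in each of these 8 fits, while Dnajb11 did not pass in 4 of them, Dnajc3, Pdia6 and Hspa5 in 2 each, and Pdia4 in 1. Leaving out an early array does not change a late difference, only the shared spread. The fits that bear on the late values are thus those without a late array, and every miss named here fell in them. Dnajb11 missed in each of those. The lone array of a group is assumed in these fits to vary like the others.

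Promoter sequences are shown for genes whose promoters hold the response element read by the factors of this pathway, including 5 of the 9 genes above and 2 genes outside the thresholds. Windows from 250 bases before to 50 bases after the transcription start (RefSeq, build GRCm38.p6) were found for 34 of the 40 genes and searched on both strands. Motifs were the endoplasmic reticulum stress element ERSE (CCAAT, 9 bases of any kind and CCACG), ERSE-II (ATTGG, 1 base of any kind and CCACG), the unfolded protein response element UPRE (TGACGTGG) and the ATF4-CHOP element CARE (TGATGCAA). ERSE and ERSE-II share CCACG and, on opposite strands, CCAAT, and UPRE holds CGTGG, the reverse complement of CCACG. Capitals mark ERSE, or ERSE-II in Dnajb11, and the strand given is that of the gene, read 5′ to 3′. Hspa5 is shown as the whole window (chr2:34771840-34772139, plus strand), and the others as the match with up to 40 bases on each side: Creld2 (chr15:88819480-88819578, plus), Pdia6 (chr12:17266451-17266549, plus), Dnajc3 (chr14:118937787-118937885, plus), Dnajb11 (chr16:22857812-22857894, plus), Canx (chr11:50325760-50325858, minus) and Hsp90b1 (chr10:86705493-86705694, minus).
Hspa5: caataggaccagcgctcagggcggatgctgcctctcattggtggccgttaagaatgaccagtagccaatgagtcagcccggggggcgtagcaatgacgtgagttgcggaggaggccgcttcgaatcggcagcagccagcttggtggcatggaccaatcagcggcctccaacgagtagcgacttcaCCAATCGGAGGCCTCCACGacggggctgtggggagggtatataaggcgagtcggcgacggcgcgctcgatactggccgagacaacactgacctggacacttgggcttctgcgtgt
Creld2: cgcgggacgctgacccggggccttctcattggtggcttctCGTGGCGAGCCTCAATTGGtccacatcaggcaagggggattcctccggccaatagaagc
Pdia6: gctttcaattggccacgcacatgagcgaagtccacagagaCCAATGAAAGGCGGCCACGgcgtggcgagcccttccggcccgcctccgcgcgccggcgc
Dnajc3: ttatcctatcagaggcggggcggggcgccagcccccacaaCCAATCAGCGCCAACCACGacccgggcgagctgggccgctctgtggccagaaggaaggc
Dnajb11: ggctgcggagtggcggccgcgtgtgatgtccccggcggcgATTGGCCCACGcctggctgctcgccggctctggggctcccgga
Canx: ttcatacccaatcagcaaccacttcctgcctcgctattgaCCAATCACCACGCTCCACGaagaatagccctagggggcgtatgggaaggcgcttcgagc
Hsp90b1: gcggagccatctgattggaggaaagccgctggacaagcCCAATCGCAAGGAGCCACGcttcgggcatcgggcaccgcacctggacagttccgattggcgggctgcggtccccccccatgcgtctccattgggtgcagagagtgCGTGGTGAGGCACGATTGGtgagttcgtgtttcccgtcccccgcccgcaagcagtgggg

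ERSE was found in 9 of the 34 windows and in 0.119% of all 32851 windows of this length, and ERSE-II in 2 of 34 and 0.0365% of all. Of the 8 genes past the thresholds that have a window, 4 held ERSE (Hspa5, Creld2, Pdia6 and Dnajc3) and 1 held ERSE-II (Dnajb11), and Xbp1, Sdf2l1 and Pdia4 held neither spelling. Of the 26 other genes with a window, 5 held ERSE (Calr, Canx, Derl3, Hsp90b1 and Syvn1) and 1 held ERSE-II (Herpud1). Canx and Derl3 held ERSE with late differences of -0.023 and -0.037. In Creld2 and in the match of Hsp90b1 nearer the start the element runs on the opposite strand, so that it reads from CGTGG to ATTGG. UPRE was in none of the 34 windows and in 0.676% of all, and CARE was in 3 of 34 (Atf3, Chac1 and Herpud1) and in 0.895% of all. A match of letters is not a measured binding site, and the arrays measured no binding.

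After early ethanol the 40 genes lay close to the array as a whole. The median difference, early ethanol minus early saline, was -0.028 over the 40 genes and -0.020 over all probe sets. Of the 40, 25 were lower and 15 higher, from -0.34 (Selenos) to 0.22 (Sdf2l1), and 59.8% of all probe sets were lower. None of the 40 passed the thresholds in either direction, where 0.923% of all probe sets did. The smallest unadjusted p of a member was 0.114, for Selenos, and each adjusted p was 1 (limma, 23410 probe sets). Both early ethanol arrays lay below both early saline arrays for 1 gene, Selenos, where 18.9% of all probe sets did so, and above them for 2, Trib3 and Derl3, where 7.5% of all probe sets did.

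Selenos, a selenoprotein of the degradation complex, read 6.86 and 6.86 on the early ethanol arrays, against 7.35 and 7.04 on the early saline arrays, a difference of -0.34 ± 0.19. Trib3 (0.16 ± 0.095) and Derl3 (0.094 ± 0.081) were at background in these arrays. Of the 9 genes above, Xbp1 read 10.44 and 10.60 after early ethanol and 10.45 and 10.28 after early saline, a difference of 0.16 ± 0.099. Hspa5 read 10.92 and 11.16 after early ethanol and 11.21 and 10.76 after early saline, a difference of 0.054 ± 0.15. Both overlapped between groups, as did the other 7. Creld2 differed by -0.065 ± 0.15, Manf by 0.12 ± 0.11, Pdia4 by -0.10 ± 0.15, Pdia6 by 0.015 ± 0.17, Dnajb11 by 0.032 ± 0.13 and Dnajc3 by 0.014 ± 0.094. The median standard error over the 40 genes was 0.11.

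The early comparison rests on saline arrays that stood apart for these genes. Sdf2l1 read 7.57 and 7.68 on the early ethanol arrays, against 7.85 and 6.96 on the early saline arrays, so its ethanol arrays lay between the saline arrays, and its difference was 0.22 ± 0.24. Early saline replicate 1 was above replicate 2 for 36 of the 40 genes, by a median of 0.20, where 54.2% of all probe sets were above, by a median of 0.016. For the other groups the same count was 17 in early ethanol, 14 in late ethanol and 22 in late saline brains. All 9 genes past the thresholds in the late comparison were among the 36, but with 36 of the 40 genes there this does not set the 9 apart. Without early saline replicate 1 the early median was 0.083, and Sdf2l1 (0.67) and Canx (0.34) were higher past the thresholds. Without early saline replicate 2 it was -0.13, and Pdia4 was lower (-0.35) and Trib3 higher (0.28) past them.

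**Figure D3:**
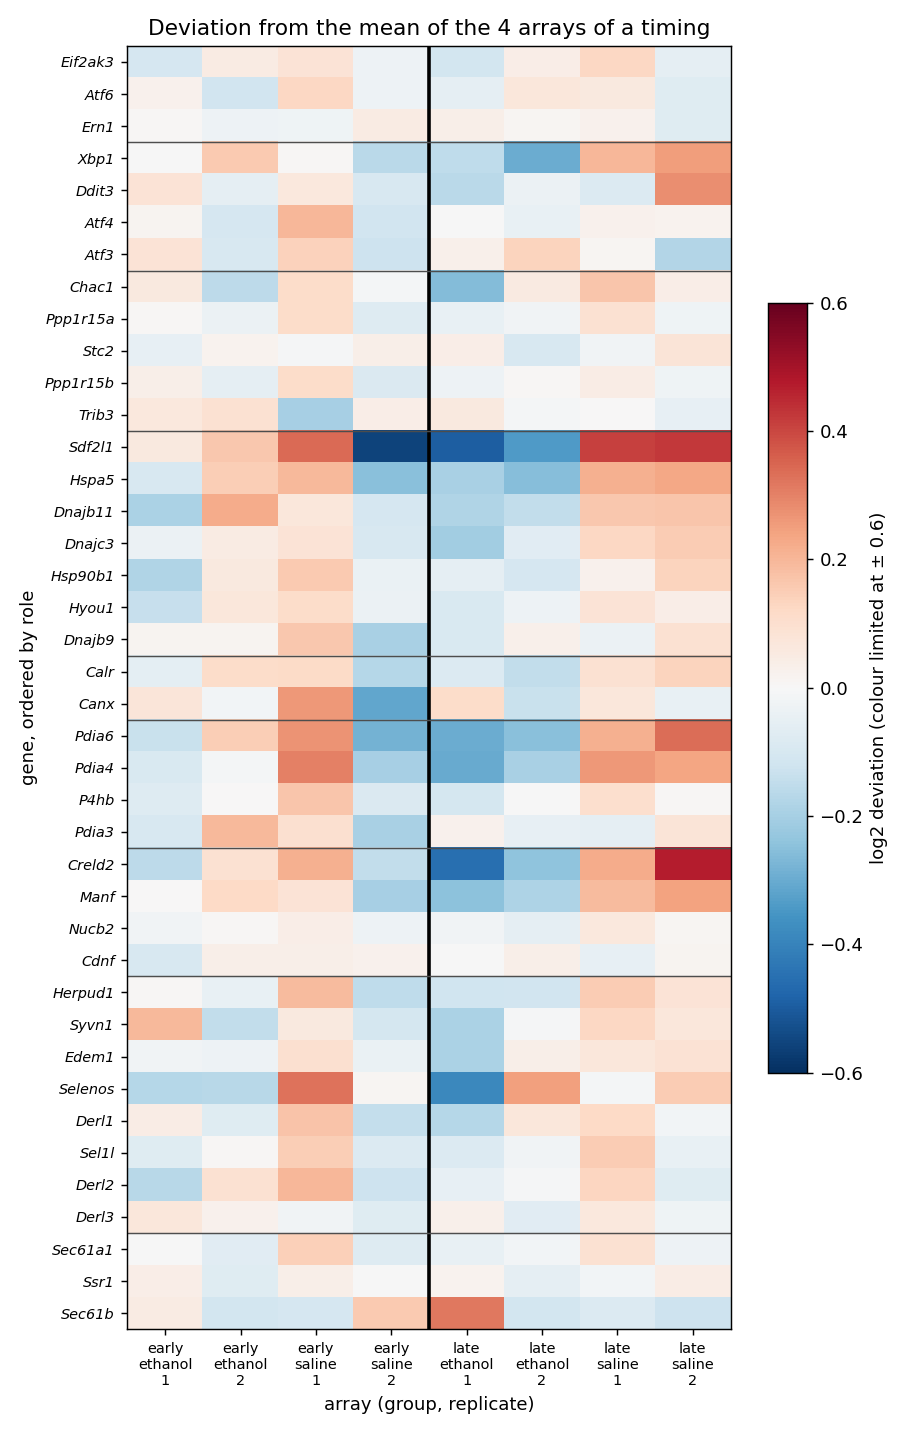
Deviation of each of the 40 genes (rows, by role) on each of the 8 arrays (columns) from the mean of the 4 arrays of its timing, in log2 units. Both late ethanol columns lie below both late saline columns in 18 rows, among them 6 of the 7 Hsp70, Hsp90 and co-chaperone rows, 3 of the 4 isomerase rows and 3 of the 4 secreted rows, whereas among the early columns the contrast lies between early saline replicate 1, with 5 genes below the mean, and early saline replicate 2, with 34 below.

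Across the 40 genes, the gap between the early saline arrays (replicate 1 minus 2) and the late difference had a Pearson r of -0.66 and a Spearman rho of -0.47, against a Pearson r of -0.097 over all probe sets. Sdf2l1 had the most negative late difference and the widest gap, but Canx had the next widest gap (0.57) with a late difference of -0.023, and Xbp1, Dnajb11 and Dnajc3 had gaps of 0.17, 0.17 and 0.18, below the median. The values come from different arrays, but genes are not independent replicates and the early gap is that of a single pair of arrays, so this is a description. The same gap between the early ethanol arrays had an r of 0.45 across the 40 genes and 0.13 over all probe sets. The gaps within late ethanol and within late saline, which share arrays with the late difference, had an r of 0.27 and 0.40 across the 40 genes.

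**Figure D4:**
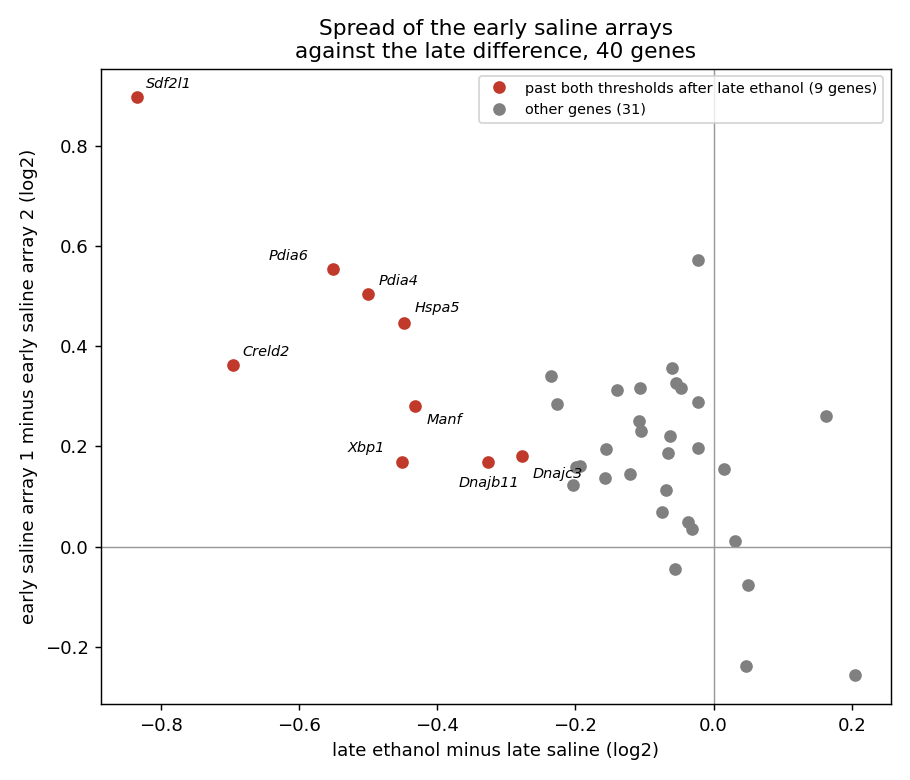
Early saline array 1 minus early saline array 2 (vertical axis, log2) against late ethanol minus late saline (horizontal axis, log2), 1 point per gene. The 9 genes past the thresholds after late ethanol (red) all lie above zero on the vertical axis, with Sdf2l1 farthest on both, and Canx (-0.023 on the horizontal axis) has a wide gap between the saline arrays with almost no late difference.

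The early and late differences were set against each other within the same fit. Early minus late was higher past the thresholds for 6 of the 40 genes, where 0.833% of all probe sets were: Sdf2l1 (1.05 ± 0.33), Creld2 (0.63 ± 0.22), Xbp1 (0.61 ± 0.14), Pdia6 (0.57 ± 0.24), Manf (0.55 ± 0.15) and Hspa5 (0.50 ± 0.21). This contrast contains the late arrays by which the genes were known, so nothing is read from the count. Without early saline replicate 2, or without late saline replicate 2, 3 genes passed, and without early saline replicate 1, 10 did.

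Other genes of the endoplasmic reticulum had smaller differences as a group. Of 98 further genes in 6 lists of folding, degradation, translocation, export, ATF4 targets and additional factors, 92 were measured. After late ethanol 64 of the 92 were lower, with a median of -0.044, where 52.7% of all probe sets were lower. Over all probe sets 0.722% were lower past the thresholds, and of the 92 only 1 passed them. This was Fkbp2, a prolyl isomerase of the reticulum, which read 8.46 and 8.40 on late ethanol arrays, against 8.76 and 8.66 on late saline arrays, a difference of -0.28 ± 0.10. By list, the late medians were -0.067 for folding and oxidation (15 of 22 lower), -0.047 for degradation (14 of 17), -0.044 for translocation, signal cleavage and glycosylation (17 of 21), -0.051 for export and retrieval (8 of 11), -0.058 for sensors and transcription factors (5 of 8) and 0.019 for ATF4 targets (5 of 13). The ATF4 list was the only 1 of the 6 with a median above zero.

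After early ethanol 56 of the 92 were lower, with a median of -0.021, where 59.8% of all probe sets were lower. Over all probe sets 0.923% passed the thresholds, and 2 of the 92 did. Sdf2, the relative of Sdf2l1, read 8.72 and 8.43 on early ethanol arrays, against 9.06 and 8.87 on early saline arrays, a difference of -0.39 ± 0.12. Sar1b, a GTPase of vesicles that leave the reticulum, differed by -0.37 ± 0.13. Neither was past the thresholds after late ethanol, with Sdf2 at 0.070 ± 0.12 and Sar1b at -0.065 ± 0.13. By list, the early medians ran from -0.049 for the ATF4 targets (8 of 13 lower) to 0.011 for export and retrieval (3 of 11 lower). Between them lay sensors and transcription factors at -0.041 (6 of 8), translocation at -0.035 (15 of 21), degradation at -0.013 (13 of 17) and folding and oxidation at 0.00091 (11 of 22).

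Lower values after late ethanol were not limited to chaperones of the reticulum. Of 22 measured heat shock proteins of the cytosol and mitochondria, 21 were lower after late ethanol, with a median of -0.15. Over all probe sets 52.7% were lower. In 15 of the 22 both ethanol arrays lay below both saline arrays, where 15.7% of all probe sets did so. Past the thresholds, 3 of the 22 were lower, where 0.722% of all probe sets were. Hspb1, a small heat shock protein, read 7.89 and 8.10 on late ethanol arrays, against 8.53 and 8.95 on late saline arrays, a difference of -0.74 ± 0.17. The inducible Hsp70 gene Hspa1a (-0.47 ± 0.18), whose signal a near-identical gene copy may share, and the Hsp90 partner Fkbp4 (-0.32 ± 0.12) were also lower past the thresholds, and the Hsp40 gene Dnajb1 differed by -0.24 ± 0.19. After early ethanol the list had a median of -0.00070, with 11 lower and 11 higher and none past the thresholds.

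Marker genes of cell types were read beside these values. All 6 measured oligodendrocyte markers were lower after late ethanol, none past the thresholds, with a median of -0.13, and their mean level was 11.43 and 11.49 on late ethanol arrays, against 11.56 and 11.64 on late saline arrays. The same 6 were higher after early ethanol, with a median of 0.14, but there the groups overlapped. Their mean level ran from 11.02 to 11.17 on early ethanol arrays and from 10.84 to 11.07 on early saline arrays. Over all probe sets, 52.7% were lower after late ethanol and 59.8% after early ethanol. The late medians were -0.039 for neurons (7 of 8 lower), -0.071 for astrocytes (6 of 7), 0.00017 for microglia (3 of 7), -0.10 for endothelium (6 of 7), 0.056 for meninges and fibroblasts (2 of 9) and -0.023 for choroid plexus (5 of 9). Secretory cells rich in reticulum were represented by anterior pituitary (0.12, 2 of 7 lower, 6 at background) and by plasma and B cells (0.084, 2 of 5 lower, all 5 at background). Nasal epithelium and gland genes, which stand for tissue outside the brain, had a late median of -0.058 (4 of 8 lower, 6 at background). Liver genes had a late median of 0 (2 of 5 lower).

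Single markers past the thresholds after late ethanol were Otx2 (-0.29 ± 0.11) of the choroid plexus and Gng13 (-0.32 ± 0.11) of the nasal list, both lower. After early ethanol they were Dcn (-0.31 ± 0.11) of the meninges and, in the nasal list, Omp (-0.66 ± 0.14) and Stoml3 (-1.59 ± 0.37), which were lower, and Obp2a (1.59 ± 0.67), Bpifb9a (2.49 ± 0.60) and Bpifb9b (3.78 ± 0.68), which were higher. The early medians ran from -0.12 (endothelium, 7 of 7 lower) to 0.17 (nasal epithelium and glands, 4 of 8 lower). For anterior pituitary the early median was 0.094 (1 of 7 lower, 4 at background), but its markers varied widely between arrays of a group. Their mean level was 5.87 and 7.04 on the early ethanol arrays, and 6.00 and 6.71 on the early saline arrays. The part of any of these cell types in the values of the 40 genes was not tested.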

How the data were processed

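Each of the 8 samples was 1 array. The log2 values deposited by the authors were used. For the early arrays, the study's methods describe image conversion in Command Console, then RMA with quantile normalization and a GC adjustment in Partek. The submitters' processing notes give Partek version 6.6. How the late arrays were processed is not given in the sources used here, nor is a genome build. Replicates are separate pools of animals. Precision is limited by the 2 arrays per group, and quantile normalization removes shifts shared by all genes.

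Of 35556 probe sets, 12146 without a symbol in the platform annotation were left out. The 23410 others (1621 with several symbols) were fitted with limma 3.58.1 in R 4.3.3 as 4 groups over all 8 arrays, and p-values were adjusted over all of them by Benjamini-Hochberg. A call needed a 1.2-fold difference and an unadjusted p under 0.05, as in the study. Standard errors are those of the moderated fit. Genes were counted as at background in a timing when their average over its 4 arrays did not exceed the receptor level (95th percentile, averaged over the same arrays). Promoters were searched with Python 3.11.15 and plots drawn with matplotlib 3.10.9. The fit was tested on simulated data.

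The members and all lists were chosen with earlier results of these data known. Every member was named. Genes of the other pathway lists and markers were named where past the thresholds (at most 6 pathway genes a timing), and heat shock genes by size (at most 4). Alternatives covered the analysis of variance of the methods, the arrays entered, the replicate block, scaling, filters, the variance trend, the choice of probe set and leaving out each array. Sec61b had 3 probe sets, and Dnajc3, Pdia4 and Ppp1r15b had 2 each. Promoter windows were not used for Atf6, Derl1, Hyou1, Manf, Ppp1r15b and Sec61a1.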

Additional observations from a re-analysis of the deposited data

Results flagged for a closer look

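For 6 genes early minus late, within the fit over all 8 arrays, was higher past both thresholds. Over all probe sets, 0.833% were higher past them. The values were 1.05 for Sdf2l1, 0.63 for Creld2, 0.61 for Xbp1, 0.57 for Pdia6, 0.55 for Manf and 0.50 for Hspa5, each higher in the early comparison. None had an adjusted p under 0.05 over all probe sets. The late arrays in this contrast are those by which the genes were known, so nothing is read from the count.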

How the results depend on the processing

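The late median over the 40 genes stayed below 0 in all 18 settings run, at -0.069 after quantile normalization over all arrays, -0.070 after cyclic loess and -0.073 to -0.14 when each array was left out. Without 1 array, late calls ranged from 5 (without late ethanol replicate 1 or late saline replicate 2) to 11 (without late ethanol replicate 2, 1 of them, Sec61b, higher), early calls from 0 to 2, early minus late calls from 3 to 10, and the early median from -0.13 to 0.083. The fit to the 4 arrays of a timing alone gave 1 early call, and the replicate block within each timing also gave 1 early call, Selenos (-0.34) in both.

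For the 9 late genes, 143 of 162 pairs of gene and setting stayed past the thresholds and none turned higher. These pairs are not independent checks, since several settings could hardly change a late call. Leaving out an early array changed only the shared spread, and leaving out members at background removed none of the 9. The mean of all probe sets changed the difference of Pdia4 alone. The methods' analysis of variance left 7, without Creld2 and Dnajc3. Quantile and loess scaling left 7 each, without Dnajb11 and Dnajc3, and the mean of all probe sets left 8, without Pdia4 (-0.16). No source says that replicate numbers mark shared animals or batches, and deviations of same-numbered arrays correlated at 0.47 (early) and -0.46 (late). The block left 8 late calls and 4 early minus late calls, and with the late numbers crossed, an alternative chosen after seeing the data, there were 9 and 6. Fits to 1 timing give no early minus late value.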
